A study of Mus musculus with 6 samples.

Results

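The genes described here are 40 genes of fatty acid, triglyceride and sterol synthesis that sterol regulatory element-binding proteins (SREBPs) control, with the proteins that control them. They were chosen by name and looked up by their GENCODE M21 symbols among the 41388 Ensembl genes of the deposited table, where all 40 are listed. They fall into 6 regulators, 12 genes of fatty acid synthesis, 5 of triglyceride synthesis and 17 of sterol synthesis. RNA came from primary murine hepatocytes of C57BL/6J mice, freed with collagenase and kept in culture overnight before infection. Both groups were infected with an adenovirus for 24 h, one encoding the control protein β galactosidase (β-gal, replicates 1, 2 and 3) and the other encoding ALOXE3 (Aloxe3, replicates 7, 8 and 9), so that no library shows uninfected cells. Aloxe3 encodes eLOX3, a lipoxygenase of the epidermal type, and the comparison asks what its overexpression does to the transcriptome of the hepatocyte. The labels do not say whether the 3 libraries of a group came from separate cultures or animals, so p-values measure the spread between these libraries, which may be technical.

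Hepatocytes make fat and cholesterol from acetyl-CoA. SREBP precursors sit in the endoplasmic reticulum, Scap carries them to the Golgi when sterols are scarce, Insig proteins hold Scap back when sterols are plentiful, and the cleaved factors then switch on the enzymes of both routes. The product of Srebf1 acts mainly on the fatty acid genes and that of Srebf2 on the sterol genes. Mlxipl encodes the carbohydrate response element-binding protein (ChREBP), which works with SREBPs on lipogenic genes when glucose is abundant.

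Of these genes, Mlxipl was the only one past the threshold between Aloxe3 and β-gal libraries, and its level was higher in hepatocytes overexpressing Aloxe3. The call was lost with any 1 library left out, without the filter on low values (adjusted p = 0.155 from limma) and without the variance trend (adjusted p = 0.0531 from limma). Values are RPKM, reads scaled to gene length and to library size, and were compared as log2(RPKM + 1) with limma in 12693 genes, those whose mean over the libraries reached 0.5 RPKM. All fold changes below are on that scale, which understates the change of low genes. Of the 40 genes, 38 passed this filter, and 1 of them (2.63%) had an adjusted p under 0.05, against 0.394% of all tested genes (0.355% higher and 0.0394% lower with Aloxe3). With an unadjusted p under 0.05 there were 4, or 10.5% against 12.7% of all tested genes, namely 1 higher, Mlxipl, and 3 lower, Scap, Acly and Dgat1, where 7.31% of all tested genes were higher and 5.42% lower. The 3 libraries of one group lay wholly above or below those of the other for 8 of the 38, or 21.1% against 19.9% of all tested genes. Of these 4 were higher (Mlxipl, Acaca, Acacb and Sc5d) and 4 lower (Scap, Acly, Dgat1 and Hmgcs1), and of all tested genes 11.2% were higher and 8.71% lower. Without Mlxipl, 0 of the 37 remaining genes had an adjusted p under 0.05 in limma, 3 (8.11%) had an unadjusted p under 0.05, and 7 (18.9%) did not overlap between the groups.

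Sequences upstream of the transcription start are shown for Mlxipl, the gene past the threshold, and for Fasn and Hmgcs1, whose enzymes build fatty acids and open the sterol route and which were not past it. Each run holds the 250 bases before a RefSeq start (GRCm38.p6), 5′ to 3′ in the sense of the gene. Capitals mark matches on either strand to CACCCCAC (the core of a sterol regulatory element), CCAAT (the box read by NF-Y, a partner of SREBPs) and CACGTG (an E-box, of the kind that ChREBP and SREBPs can bind). RefSeq gives Mlxipl 2 starts, 17001 bases apart on chromosome 5, and reads counted per gene do not tell transcripts of one start from those of the other.
Mlxipl, first start, chr5:135089640-135089889, forward strand: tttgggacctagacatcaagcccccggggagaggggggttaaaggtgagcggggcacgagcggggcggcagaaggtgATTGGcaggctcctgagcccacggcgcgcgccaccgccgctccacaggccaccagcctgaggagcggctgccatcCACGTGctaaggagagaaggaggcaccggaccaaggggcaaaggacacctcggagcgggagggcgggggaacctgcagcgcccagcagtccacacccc
Mlxipl, second start, chr5:135106641-135106890, forward strand: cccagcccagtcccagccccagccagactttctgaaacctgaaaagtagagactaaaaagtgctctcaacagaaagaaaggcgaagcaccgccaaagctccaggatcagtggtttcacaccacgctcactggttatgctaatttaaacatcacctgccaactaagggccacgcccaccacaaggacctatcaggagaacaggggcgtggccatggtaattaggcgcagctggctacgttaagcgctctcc
Fasn, chr11:120824548-120824797, reverse strand: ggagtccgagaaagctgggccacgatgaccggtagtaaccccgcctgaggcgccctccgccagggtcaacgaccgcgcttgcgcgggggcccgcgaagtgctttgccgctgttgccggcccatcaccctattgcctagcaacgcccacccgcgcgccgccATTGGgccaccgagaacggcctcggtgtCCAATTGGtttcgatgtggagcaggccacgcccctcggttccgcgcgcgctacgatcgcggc
Hmgcs1, chr13:119690101-119690350, forward strand: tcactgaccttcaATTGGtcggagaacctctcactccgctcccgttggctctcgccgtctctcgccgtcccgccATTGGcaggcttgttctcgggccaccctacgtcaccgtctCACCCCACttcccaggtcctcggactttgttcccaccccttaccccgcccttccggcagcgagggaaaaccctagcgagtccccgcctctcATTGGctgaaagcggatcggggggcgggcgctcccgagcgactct
The window of the first Mlxipl start holds an E-box at -98 and a CCAAT box at -173, counted from -1 for the base just before the start,, and the window of the second start has no match to either. The Fasn window has 3 CCAAT boxes, of which 2 share bases. The Hmgcs1 window joins the sterol regulatory element core, at -136, with 3 CCAAT boxes upstream of the start.

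RefSeq windows from 250 bases before to 50 after the start were at hand for 31 of the 40 genes, with 42 starts. They were not at hand for Scd1, Scd2, Fads1, Dgat1, Dgat2, Fdps, Fdft1, Sqle and Stard4. CCAAT was found in 61.9% of these windows and in 37.4% of all 32851 windows, and among sterol genes in 12 of 16 windows (75%). GGGCGG, the Sp1 box, was in 64.3% against 35.7% of all windows, and in 13 of the 16 sterol windows. The sterol regulatory element core was in 3 windows, those of Hmgcs1, Acat2 and Gpam (7.14% against 2.87%). CACGTG was in 7 windows of 6 genes (16.7% against 7.15%), with Mlxipl, Insig1 and Scap among the regulators, and the 2 Scap windows overlap and hold the same match. TATAAA was in 3 windows of 2 genes, Acacb and Scap (7.14% against 13.6%), and 2 of these windows overlap and share 1 match. These shares were not tested. A match describes these letters and is not a site shown to be bound.

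The 6 libraries held 25521908 to 32431318 reads in the scaling of the deposited values. Aloxe3 itself, the overexpressed gene, had 1.74 to 2.06 RPKM in the β-gal libraries and 42.3 to 56.3 RPKM in the Aloxe3 libraries (log2 fold change 4.05, limma adjusted p = 4.74e-06, SE 0.1), counted as reads of the mouse gene. The sources used here do not give the species of the ALOXE3 insert, and whether these reads count all of its transcripts was not tested. Hepatocyte markers were led by Alb at 4362 to 4552 RPKM, whereas Tat, which encodes tyrosine aminotransferase, was at most 0.661 RPKM and Cyp2e1 at most 2.86 RPKM. The 7 hepatocyte markers summed to 5113, 5082 and 5079 RPKM in β-gal replicates 1, 2 and 3 and to 5010, 5070 and 4906 RPKM in Aloxe3 replicates 7, 8 and 9, so that every Aloxe3 library was lower. Alb, the bulk of the sum, overlapped between the groups, as did Apob, Hnf4a and Cyp2e1, whose log2 fold changes were 0.016, 0.031 and 0.085. Apoa1 (241 to 246 RPKM against 218 to 235) and Serpina1a (51.5 to 53.5 RPKM against 47.9 to 48.5) were lower in every Aloxe3 library, with limma adjusted p-values of 0.349 and 0.262, and Tat was higher in each (0.193 to 0.346 RPKM against 0.438 to 0.661). The part of these shifts in the results below was not tested. The summed levels of other cell types overlapped between the groups. They were 24.6 to 28.7 RPKM with β-gal and 24.5 to 28.6 with Aloxe3 for the 6 endothelial markers, 4.22 to 5.92 and 4.19 to 4.89 for the 6 Kupffer cell markers, 3.39 to 3.94 and 3.54 to 3.86 for the 6 stellate cell markers, and 78.2 to 93.5 and 74.7 to 93 for the 4 cholangiocyte markers, nearly all from Krt19 and Sox9. The cholangiocyte marker Epcam, under the filter on low values, was lower in every Aloxe3 library (0.398 to 0.456 RPKM against 0.154 to 0.334). The stellate cell marker Lrat was listed at 0 in every library, and the 4 adipocyte markers together stayed at or under 0.157 RPKM. Reads from the mitochondrial genome made up 2.76 to 2.86% of each β-gal library and 2.98, 2.95 and 3.7% of Aloxe3 replicates 7, 8 and 9. Replicate 9 stood apart from the other Aloxe3 libraries in its counts as well: divided by its degrees of freedom, the chi-square between libraries was 10.4 and 11.4 in the pairs with replicate 9 and 3.42 to 5.56 in the other pairs of a group. As this is RNA of whole cultures, fewer cells of a type and less RNA per cell cannot be told apart.

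**Figure D1:**
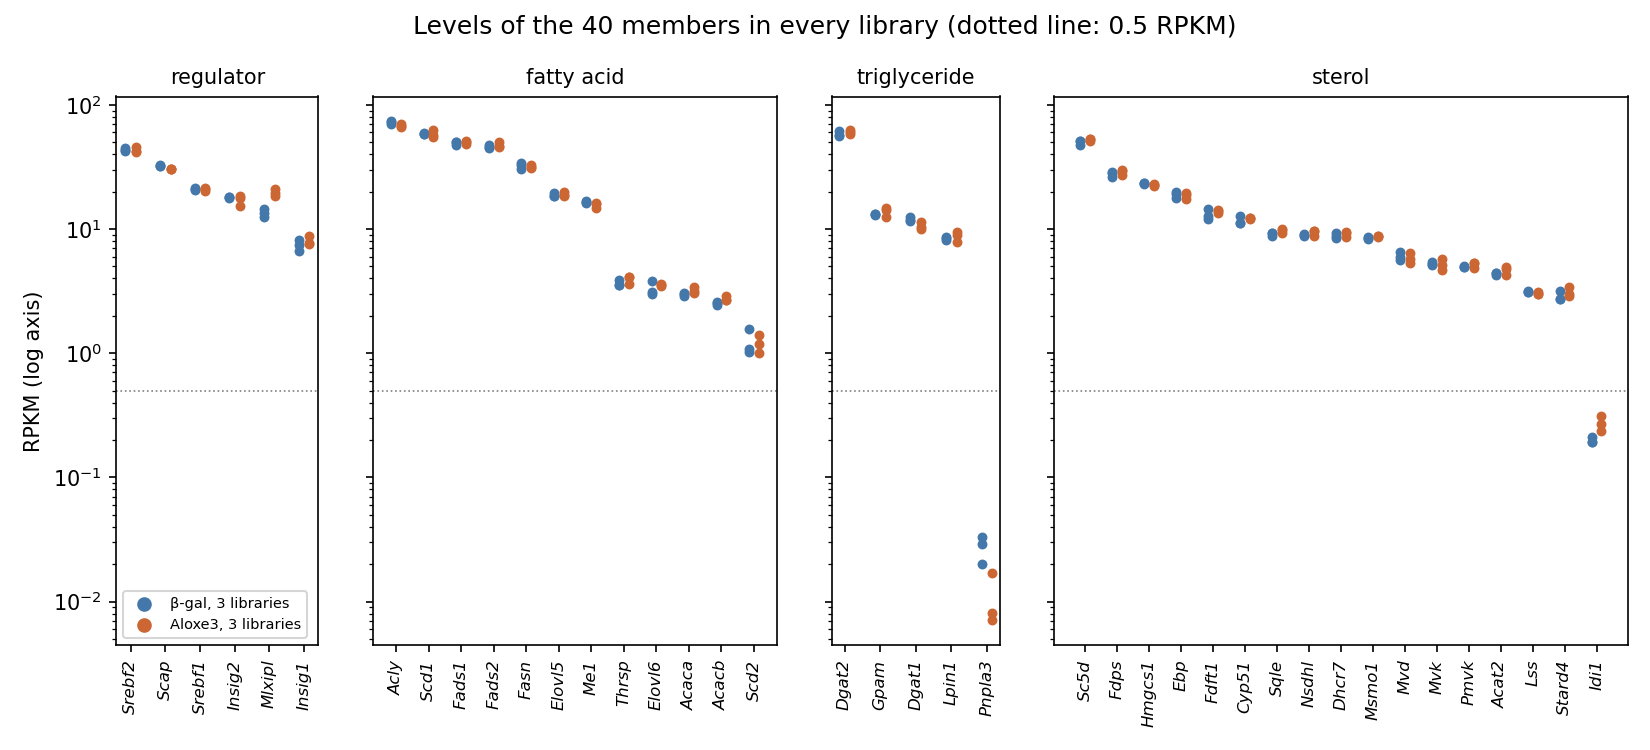
RPKM of each of the 40 genes in every library on a log axis, by group of genes and ordered by the β-gal mean, with β-gal libraries in blue and Aloxe3 libraries in orange. Points of both colors lie together for most genes, Mlxipl stands higher in orange, and Idi1 and Pnpla3 lie under the dotted line at 0.5 RPKM.

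The levels differed widely among the genes, as the plot of RPKM by gene shows. In β-gal libraries the most abundant was Acly, which makes cytosolic acetyl-CoA from citrate, at 72.3 ± 1.68 RPKM (SD, n = 3). Dgat2 (58.7 ± 3.03), which adds the last acyl chain of a triglyceride, and Scd1 (58.5 ± 0.731), the desaturase that makes oleate, came next and did not differ beyond their spread. Sc5d (49.8 ± 1.7), a late desaturase of the sterol route, and Fads1 (49.5 ± 1.45) and Fads2 (46.2 ± 1.65), the desaturases of polyunsaturated fatty acids, followed, and the first pair again lay within their spread. Among regulators the order was Srebf2 (43.7 ± 1.36), Scap (32.4 ± 0.442), Srebf1 (20.9 ± 0.374), Insig2 (17.9 ± 0.119), Mlxipl (13.5 ± 1.03) and Insig1 (7.4 ± 0.771). With Aloxe3, Mlxipl at 19.8 ± 1.38 RPKM came near Srebf1 at 20.8 ± 0.611 RPKM.

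Mlxipl (chromosome 5, 135089890 to 135138382 in GRCm38, forward strand) had 12.4, 13.5 and 14.5 RPKM in β-gal replicates 1, 2 and 3. In Aloxe3 replicates 7, 8 and 9 it had 18.5, 19.6 and 21.2 RPKM. Each Aloxe3 library was above each β-gal library, and the gap between the groups was wider than the range within either. The mean was 46.7% higher, with a log2 fold change of 0.52 (limma adjusted p = 0.0271, 95% interval 0.37 to 0.68, SE 0.067). An exact permutation test gave a two-sided p of 0.1, the smallest that 3 libraries against 3 allow. The log2 fold change was 0.47 to 0.57 with 1 library left out, but the adjusted p was then 0.0566 to 0.129 for each of the 6 libraries, above the threshold. Without Aloxe3 replicate 9, the library with the larger mitochondrial share, the log2 fold change was 0.47 (adjusted p = 0.081). The tested genes nearest to Mlxipl on either side, Dnajc30, Vps37d, Tbl2 and Bcl7b, had log2 fold changes of -0.072 to 0.09 and none was past the threshold.

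The other regulators stayed within narrow bounds. Srebf1 had 20.5, 20.9 and 21.2 RPKM with β-gal and 21.3, 21.1 and 20.1 RPKM with Aloxe3. Srebf2 had 45.2, 42.7 and 43.1 RPKM against 42.4, 41.5 and 46.2 RPKM. For both genes the groups overlapped, and the 95% interval of the log2 fold change ran from -0.089 to 0.083 for Srebf1 and from -0.12 to 0.1 for Srebf2. Insig1 had 8.15, 7.43 and 6.61 RPKM with β-gal and 8.75, 7.78 and 7.63 RPKM with Aloxe3. It was the most variable regulator, with a coefficient of variation of 10.4% among β-gal libraries, and its interval ran from -0.068 to 0.29. Insig2 had 18, 17.8 and 18 RPKM against 18.5, 17.8 and 15.3 RPKM, where Aloxe3 replicate 9 was the low library. Scap (chromosome 9, 110333288 to 110384950) had 32, 32.9 and 32.3 RPKM with β-gal and 30.5, 30.7 and 30.3 RPKM with Aloxe3, so that the Aloxe3 libraries lay below the β-gal libraries. Its log2 fold change of -0.085 (limma adjusted p = 0.334, SE 0.032) was not past the threshold.

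**Figure D2:**
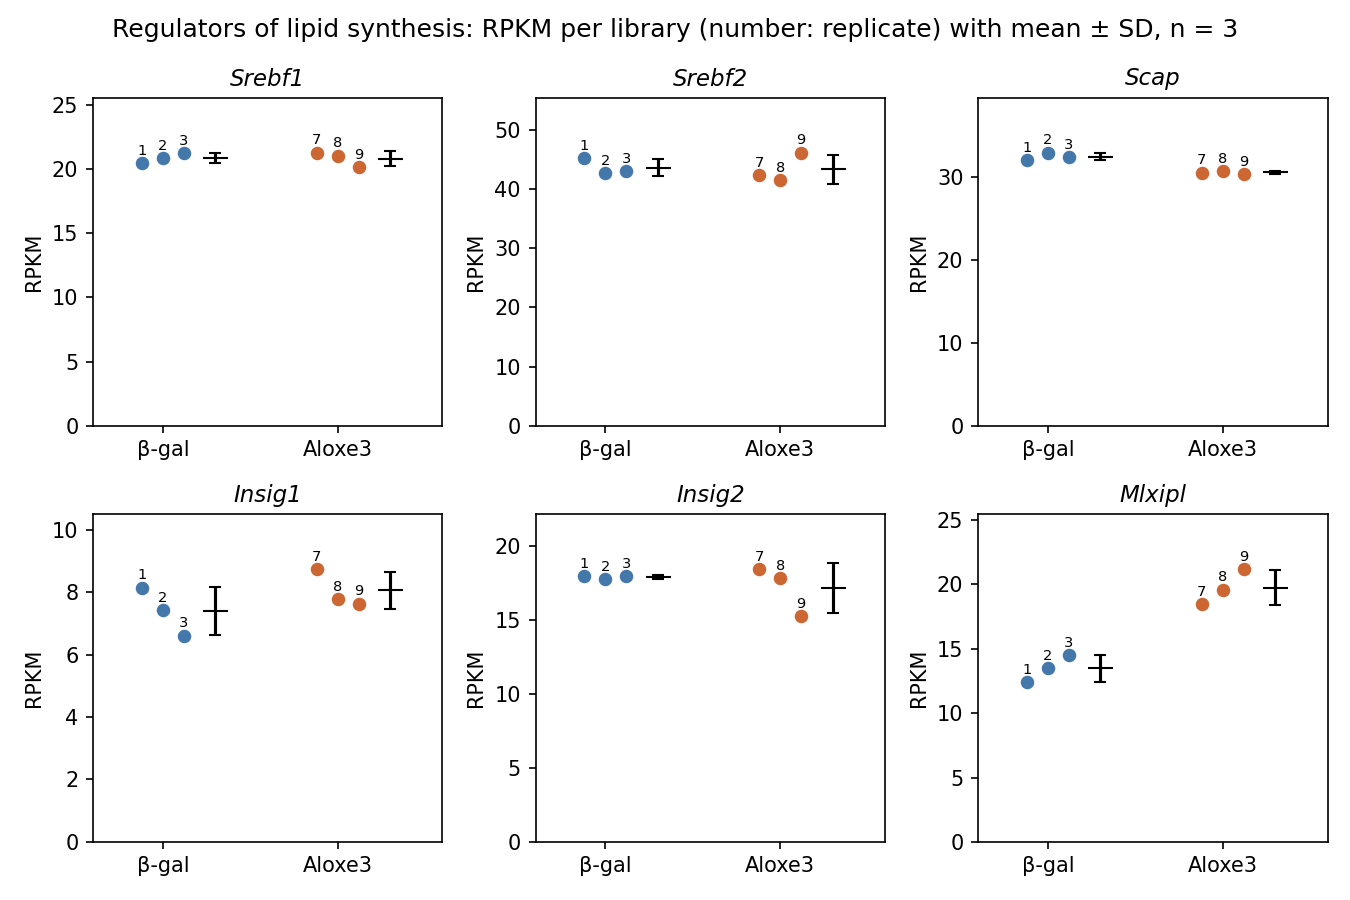
RPKM of the 6 regulators in each library from a zero baseline, with the replicate number above each point and the mean ± SD (n = 3) beside it. The Mlxipl panel shows the widest gap, from 12.4 to 14.5 RPKM with β-gal to 18.5 to 21.2 RPKM with Aloxe3.

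No gene of fatty acid synthesis passed the threshold. Fasn (chromosome 11), the multienzyme that builds palmitate, had 34.3, 32.5 and 30.3 RPKM with β-gal and 31.8, 31.2 and 33 RPKM with Aloxe3. Scd1 (chromosome 19) had 59.2, 57.8 and 58.4 RPKM against 57.4, 55.4 and 63.1 RPKM. Both genes, which the study also measured in mouse liver, overlapped between the groups here. The log2 fold change was -0.016 for Fasn (95% interval -0.13 to 0.1) and 0.0013 for Scd1 (95% interval -0.12 to 0.12).

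Acly (chromosome 11) had 73.6, 72.8 and 70.4 RPKM with β-gal and 68.1, 69.6 and 66 RPKM with Aloxe3, with every Aloxe3 library lower. Its log2 fold change was -0.088 (limma adjusted p = 0.376, SE 0.036). The acetyl-CoA carboxylases, which make malonyl-CoA, lay the other way. Acaca, the cytosolic form, had 3, 2.91 and 3.04 RPKM with β-gal and 3.18, 3.39 and 3.05 RPKM with Aloxe3. Acacb, the form at the mitochondrial surface, had 2.55, 2.46 and 2.59 RPKM against 2.69, 2.92 and 2.66 RPKM. In both the Aloxe3 libraries were just above the β-gal libraries, with log2 fold changes of 0.079 (adjusted p = 0.548) and 0.089 (adjusted p = 0.51 from limma). Me1, the malic enzyme that supplies NADPH, had 16.4, 16.9 and 16.1 RPKM against 16.2, 14.8 and 15.8 RPKM, and the groups overlapped. Scd2, the least abundant gene of this group, had 1.56, 1.02 and 1.09 RPKM with β-gal and 1.19, 1.01 and 1.39 RPKM with Aloxe3, and its spread of 23.9% among β-gal libraries was the widest of the 38 tested genes of lipid synthesis and its control. The remaining ones, Elovl5, Elovl6, Fads1, Fads2 and Thrsp, had log2 fold changes from 0.0088 to 0.081 with overlapping groups.

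Triglyceride synthesis was measured in 4 of its 5 genes. Dgat1 (chromosome 15), the second enzyme for the last acylation, had 12.5, 11.6 and 11.8 RPKM with β-gal and 11.4, 10.4 and 9.94 RPKM with Aloxe3. All Aloxe3 libraries were lower, by 11.3% in the mean, but the log2 fold change of -0.16 (limma adjusted p = 0.313, 95% interval -0.29 to -0.032, SE 0.055) was not past the threshold. Dgat2 had 57.2, 62.2 and 56.7 RPKM against 60.9, 62.6 and 58.7 RPKM, with overlapping groups. Gpam, the mitochondrial acyltransferase that starts glycerolipid synthesis, had 13.2, 13.3 and 13 RPKM with β-gal and 14.8, 14.2 and 12.5 RPKM with Aloxe3, where replicate 9 was below all other libraries. Lpin1, a phosphatidate phosphatase, had 8.19, 8.68 and 8.53 RPKM against 8.88, 9.45 and 7.92 RPKM, again lowest in replicate 9. Pnpla3, which encodes a lipid droplet protein, was at the limit of detection, with 0.02, 0.033 and 0.029 RPKM in β-gal libraries and 0.017, 0.0071 and 0.0082 RPKM in Aloxe3 libraries, and no fold change is given.

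None of the 16 tested genes of sterol synthesis had an adjusted or unadjusted p under 0.05 in limma. Sc5d had 50.8, 50.8 and 47.9 RPKM with β-gal and 53.1, 53.4 and 51.3 RPKM with Aloxe3, all Aloxe3 libraries being higher (log2 fold change 0.076, limma adjusted p = 0.454, SE 0.038). Hmgcs1, which makes HMG-CoA, had 23.7, 23.2 and 23.4 RPKM against 22.2, 22.7 and 23.2 RPKM, with the Aloxe3 libraries below the β-gal libraries (log2 fold change -0.044, adjusted p = 0.618 from limma). These were the 2 tested sterol genes without overlap, or 12.5% against 19.9% of all tested genes.

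Along the route, Acat2, which condenses acetyl-CoA, had 4.43, 4.46 and 4.24 RPKM with β-gal and 4.74, 4.94 and 4.3 RPKM with Aloxe3. Sqle, the squalene epoxidase, had 9.34, 8.85 and 9.36 RPKM against 10.1, 9.28 and 9.74 RPKM. Nsdhl, a demethylating enzyme of the late pathway, had 9.06, 8.87 and 8.94 RPKM against 9.68, 8.84 and 9.59 RPKM. In each of these genes at least 1 Aloxe3 library lay within the β-gal range or below it. The mevalonate enzymes Mvk, Pmvk and Mvd had log2 fold changes of -0.019, 0.043 and -0.045. Fdps makes farnesyl diphosphate, and Fdft1, Lss, Cyp51, Msmo1, Ebp and Dhcr7 lead from there to cholesterol. The log2 fold changes of these genes ranged from -0.036 for Lss to 0.083 for Fdft1, and for the sterol carrier Stard4 the value was 0.072. With 1 library left out, Fdft1 ranged from 0.027 (without β-gal replicate 3) to 0.156 (without β-gal replicate 1) and Stard4 from 0.015 (without Aloxe3 replicate 7) to 0.129 (without β-gal replicate 1). Idi1, which isomerizes isopentenyl diphosphate, fell under the filter on low values, with 0.195, 0.211 and 0.193 RPKM in β-gal libraries and 0.313, 0.235 and 0.27 RPKM in Aloxe3 libraries. These levels rested on 20 to 28 reads per library, and without the filter its log2 fold change was 0.085 (limma adjusted p = 0.538, unadjusted p = 0.039, SE 0.032).

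**Figure D3:**
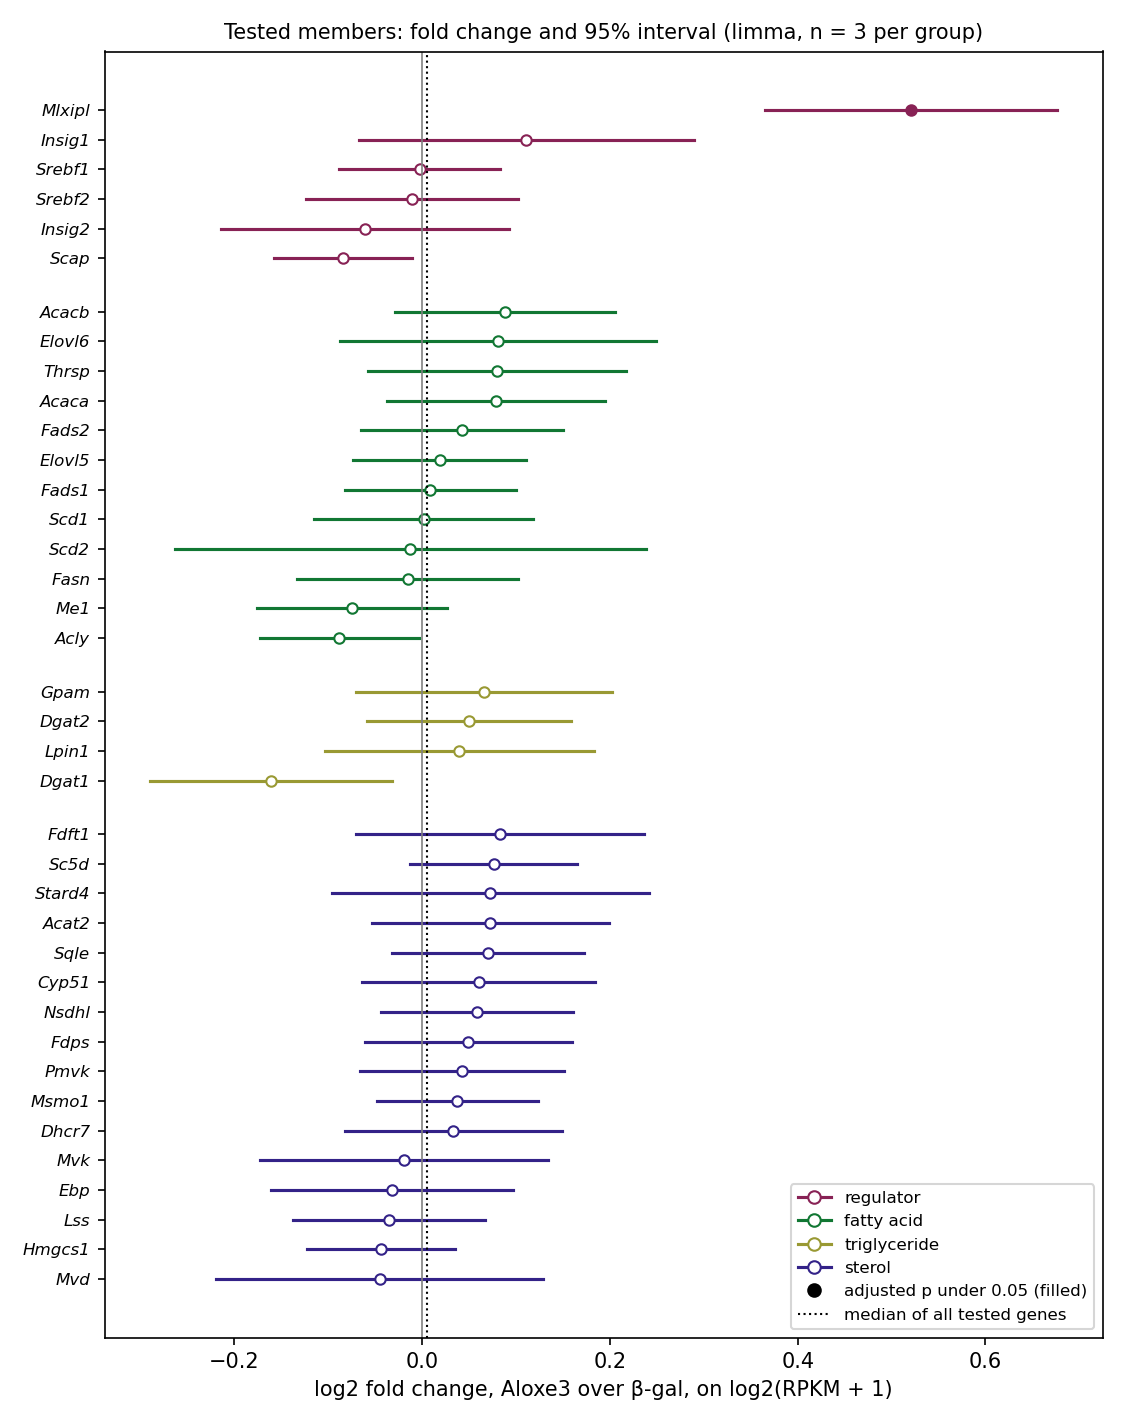
Log2 fold change of Aloxe3 over β-gal with its 95% interval (limma, n = 3 per group) for the 38 tested genes, by group of genes, with a filled point where the adjusted p is under 0.05 and a dotted line at the median of all tested genes. Mlxipl is the only filled point, at 0.52, and all other points lie between -0.16 and 0.11.

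The 37 tested genes other than Mlxipl had log2 fold changes from -0.16 to 0.11. The highest, that of Insig1, was 0.175 without β-gal replicate 1 and 0.042 without β-gal replicate 3. With 1 library left out, 33 of the 38 tested genes moved by over 1.5 times or changed sign for at least 1 library, all but Mlxipl, Scap, Acly, Dgat1 and Lss. Elovl6 ranged from 0.031 (without β-gal replicate 2) to 0.161 (without β-gal replicate 1), Pmvk from 0.022 (without Aloxe3 replicate 9) to 0.079 (without Aloxe3 replicate 7), and Thrsp reached 0.13 without Aloxe3 replicate 9. Acaca was 0.047 and Acacb 0.058 without Aloxe3 replicate 8, Sc5d 0.048 without β-gal replicate 3, and Hmgcs1 -0.029 without Aloxe3 replicate 7. For all 37 the 95% interval, taken gene by gene, lay within 0.29 of 0 on the log2 scale, a 1.22-fold difference in RPKM + 1. The plot of fold changes shows these intervals around the median of all tested genes, 0.005.

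The fatty acid arm and the sterol arm were then set side by side. The median log2 fold change was 0.014 over the 12 fatty acid genes (8 above 0 and 4 below) and 0.046 over the 16 tested sterol genes (11 above 0 and 5 below). Over the 4 tested triglyceride genes it was 0.045 and over the 6 regulators -0.007. With 1 library left out, the triglyceride median ranged from 0.008 (without Aloxe3 replicate 8) to 0.088 (without Aloxe3 replicate 9), and the sterol median from 0.028 (without Aloxe3 replicate 7) to 0.067 (without β-gal replicate 1). Of all tested genes, 52.4% had a log2 fold change above 0. In single libraries, the median difference from the β-gal mean was 0.013, -0.004 and -0.035 for the fatty acid arm in β-gal replicates 1, 2 and 3, and 0.004, -0.009 and 0.025 in Aloxe3 replicates 7, 8 and 9. For the sterol arm it was 0.021, -0.013 and -0.027 against 0.083, 0.037 and 0.006. The groups overlapped in both arms, and β-gal replicate 1 stood above Aloxe3 replicate 9 in the sterol arm. The fatty acid minus sterol difference was -0.008, 0.009 and -0.008 with β-gal and -0.079, -0.046 and 0.019 with Aloxe3, so that replicates 7 and 8 lay below the β-gal libraries and replicate 9 above them. Without Aloxe3 replicate 8 the difference between the 2 medians was 0.004, of the opposite sign to the -0.032 of all libraries.

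**Figure D4:**
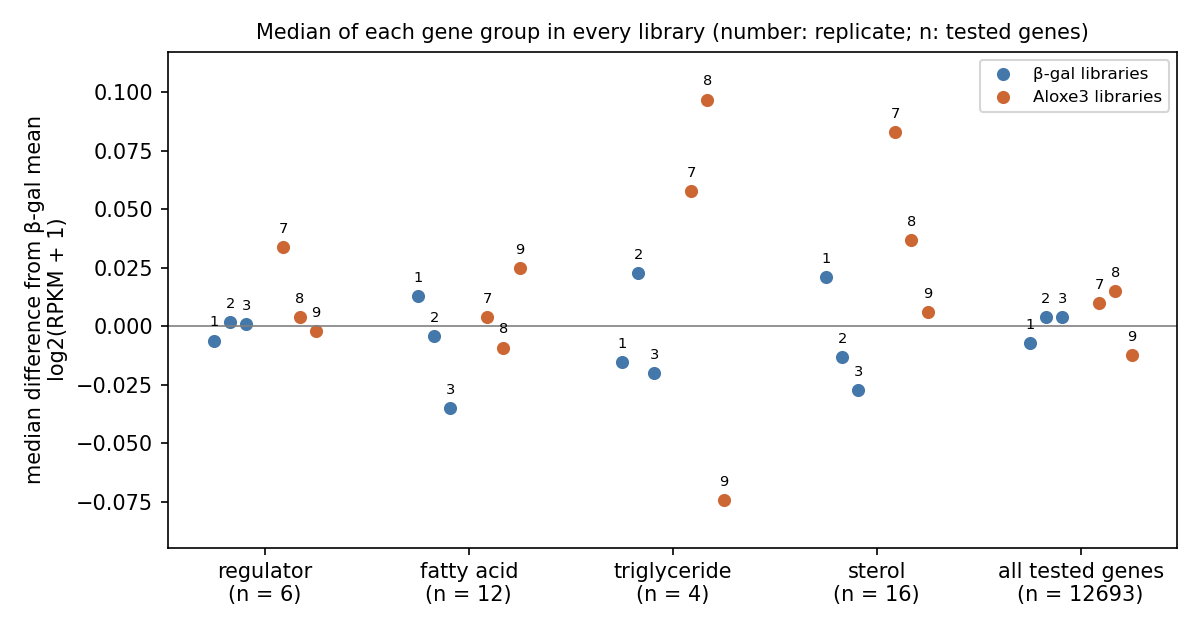
Median over the tested genes of each group of the difference from the β-gal mean, on log2(RPKM + 1), in each library, with the replicate number above each point and all tested genes at the right. The Aloxe3 points of the sterol arm run from 0.006 to 0.083 and overlap the β-gal points, and those of the triglyceride arm spread from -0.074 to 0.097.

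Libraries of the same group also differed in these genes. Among β-gal libraries, replicate 1 had the highest value for 20 of the 38 tested genes and for 11 of the 16 sterol genes, while it was the highest for 32.2% of all tested genes. Fdft1 (14.6, 12.8 and 12.1 RPKM), Cyp51 (12.7, 11.2 and 11.2 RPKM) and Stard4 (3.2, 2.72 and 2.74 RPKM) show it, as does Insig1. Replicate 1 also had the highest β-gal sum of hepatocyte, Kupffer cell, endothelial, stellate cell and cholangiocyte markers, and their part in this was not tested. Among Aloxe3 libraries, replicate 9 was the lowest for 21 of the 38 genes, and it was the lowest for 46.8% of all tested genes.

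Genes of the same pathways that are not among the 40 were examined as a further list of 27, of which 26 were tested. None was past the threshold, while 3 had an unadjusted p under 0.05 (11.5% against 12.7% of all tested genes), and voom on recovered reads, the other method run, called none as well. The median log2 fold change was -0.007, with 12 above 0 and 14 below. The groups did not overlap for 7 of the 26 (26.9% against 19.9% of all tested genes). Of these, 2 were higher and 5 lower, where 11.2% of all tested genes were higher and 8.71% lower. By list, the median was -0.01 for regulators, -0.064 for fatty acid genes, -0.067 for triglyceride genes and 0.011 for sterol genes. The fatty acid and triglyceride medians thus had the opposite sign to the 0.014 and 0.045 of the same arms among the 40. The smallest p belonged to Acat1, which was listed with the sterol genes but encodes the mitochondrial acetoacetyl-CoA thiolase. It had 5.81, 5.33 and 5.66 RPKM against 6.8, 6.14 and 6.43 RPKM (log2 fold change 0.18, limma adjusted p = 0.262, SE 0.05). Next came Elovl1, an elongase of very long fatty acids, with 81.5, 76.7 and 74.6 RPKM against 70.8, 69.9 and 72.3 RPKM (log2 fold change -0.13, limma adjusted p = 0.293, SE 0.041). Mlx, the dimer partner of ChREBP, had 18.7, 17 and 17.4 RPKM with β-gal and 16, 16.7 and 17 RPKM with Aloxe3, a difference not past the threshold (log2 fold change -0.09, adjusted p = 0.459 from limma).

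Reads from overlapping genes could not be told apart by strand, since the library protocol does not mark it. The spans of Fdft1, Cyp51 and Srebf1 overlap those of Ctsb (387 RPKM on average), Akap9 and Rai1 on the other strand, and reads that fit both genes were not counted.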

How the data were processed

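RNA was sequenced as single reads of 50 bases in 6 libraries. Per the submitters' notes and the methods, the authors aligned reads with STAR 2.0.4b to the mouse genome (GRCm38.p2, Ensembl release 76), counted unique unambiguous reads per gene with featureCounts 1.4.5, and deposited the values as RPKM. The step from counts to RPKM is not given in the sources used here. Gene identifiers were matched to GENCODE M21 (GRCm38), for 40340 of 41388 identifiers. The whole-number steps of the RPKM values gave each library's size in reads. Reads per gene were recovered with the GENCODE length where they came out whole within 0.02 of a read, and otherwise with the smallest length that gave whole reads, so that the latter may be too low by a common factor. A single read on a kilobase of gene came to between 0.0308 and 0.0392 RPKM, depending on the library.

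Values were tested as log2(RPKM + 1) in genes whose mean reached 0.5 RPKM, with limma 3.58.1 in R 4.3.3 (eBayes with trend) and Benjamini-Hochberg adjustment over all tested genes at 0.05. Replicate pairs differed by more than sampling noise (chi-square per degree of freedom 3.42 to 11.4, highest in the pairs with Aloxe3 replicate 9), and each library was kept. The genes and lists were chosen with earlier results of these data known, so no list was tested as a set. Values per library are given for genes past the threshold, the 4 genes of each group with the smallest p, the most and least abundant, Fasn and Scd1, and of the other pathway genes the 2 with the smallest p. Those of Srebf1 are shown as well, outside these rules. Hmgcs1, Mlx, Fdft1, Cyp51, Stard4 and the genes next to Mlxipl were named after their values were seen. Alternatives were a pseudocount of 0.1, no filter, a filter at 5 RPKM, quantile normalization, scaling all libraries to 1 common median, eBayes without trend, voom on the recovered reads with trimmed-mean (TMM) scaling, a correction for transcript GC content (spline with 5 degrees of freedom), and each library left out. The fit was also run on simulated reads with known changes, and the outcome is not reported here. Scripts ran in Python 3.11.15 with scipy 1.17.1, pandas 2.3.3 and numpy 2.4.6. Promoter windows are from RefSeq (GRCm38.p6). A gene looked up beside these lists is not reported here.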

Additional observations from a re-analysis of the deposited data

How the results depend on the processing

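Mlxipl kept a positive log2 fold change in every alternative tried, from 0.47 to 0.57, and its adjusted p ranged from 0.000471 to 0.155. The count of genes past the threshold was 1 with a pseudocount of 0.1, a filter at 5 RPKM, equal medians, quantile normalization, voom and the GC correction. It was 0 without a filter (24989 genes tested, Mlxipl adjusted p = 0.155), 0 without the variance trend (adjusted p = 0.0531), and 0 to 0 with 1 library left out, which leaves a group with 2 samples. With voom the adjusted p of Mlxipl was 0.000471. The other pathway genes past the threshold stayed at 0 throughout, and Aloxe3 stayed past it. The regulator median of -0.007 was 0.007 with quantile normalization, -0.021 with equal medians and -0.015 to 0.019 with 1 library left out. The fatty acid median of 0.014 was -0.001 with the GC correction, 0.001 with the filter at 5 RPKM and 0 to 3 decimals with equal medians, and the fatty acid minus sterol difference of -0.032 was -0.009 with quantile normalization. With 1 library left out the fatty acid median was 0.006 to 0.044, and the fatty acid minus sterol difference -0.039 to 0.004. Genes near 0 changed sign, none past the threshold: Srebf1 to 0.013 (quantile) and 0.004 (GC), Srebf2 to 0.002 (quantile), Scd1 to -0.013 (medians), -0.002 (voom) and -0.014 (GC), Elovl5 to -0.007 (GC), and Fads1 to -0.005 (medians). With 1 library left out the ranges were -0.073 to 0.01 for Ebp, -0.008 to 0.038 for Elovl5, -0.015 to 0.031 for Fads1, -0.062 to 0.027 for Fasn, -0.112 to 0.017 for Insig2, -0.012 to 0.102 for Lpin1, -0.112 to 0.011 for Mvd, -0.083 to 0.041 for Mvk, -0.052 to 0.041 for Scd1, -0.078 to 0.092 for Scd2, -0.018 to 0.02 for Srebf1, and -0.057 to 0.019 for Srebf2. With all libraries kept, log2 fold changes over the settings ran from -0.102 to -0.052 for Acly and from -0.072 to -0.036 for Lss. They ran from -0.077 to -0.039 for Hmgcs1 and from 0.042 to 0.092 for Sc5d. For Acaca the range was 0.044 to 0.103 and for Acacb 0.048 to 0.122. The causes of these moves were not tested. No paired analysis was made, because the labels do not say whether a β-gal and an Aloxe3 library share a cell preparation.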

Other observations

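Genes that respond to carbohydrate in liver and are known as ChREBP targets were looked up after the value of Mlxipl had been seen, so that they carry no test as a list. Of 9 such genes 7 were tested and none was past the threshold of limma, while 1, Pklr, had an unadjusted p under 0.05 (14.3%, against 12.7% of all tested genes, of which 0.394% were past the threshold). Pklr, the liver pyruvate kinase, had 79.7, 77.7 and 83.9 RPKM with β-gal and 75.9, 75.2 and 69.9 RPKM with Aloxe3, with every Aloxe3 library lower (log2 fold change -0.13, adjusted p = 0.334 from limma). Txnip, which restrains glucose uptake, had 8.98, 10.5 and 11.1 RPKM against 10.9, 12.7 and 10.5 RPKM, and Arrdc4, its relative, 5.38, 5.36 and 6.45 RPKM against 5.2, 6.03 and 5.47 RPKM, and in both the groups overlapped. Khk, Gpd1, Tkfc and Slc2a2 overlapped between the groups as well, and G6pc and Fgf21 were under the filter on low values. Mlxip, the relative of Mlxipl that encodes MondoA, had a log2 fold change of -0.027 (adjusted p = 0.863 from limma).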
